A study of Bos taurus with 6 samples.

Results

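The genes described here belong to the fibroblast growth factor (FGF) pathway: the ligands FGF2, FGF18, FGF1 and FGF7, the receptors FGFR1, FGFR2 and FGFR4, and the feedback genes SPRY2, SPRY4 and DUSP6. They were chosen from the mRNA table of primary bovine myoblasts treated with resveratrol (RSV), where an mRNA can be named only if the study's sheets pair its identifier with a symbol. Those sheets cover differentially expressed (DE) mRNAs alone, and the copy used here is shortened. Of the 10 members, 3 had an identifier (FGF2, FGF18 and FGF7) among 26332 mRNAs listed, and the other 7 were not analysed here. The members that could be read were thus selected on the same contrast, RSV against DMSO, that their values describe, and the differences below are given with their error and without a test. The members nearest outside that selection could not be named. Among the wider pathway genes described below, NRAS had the smallest difference, with a log2FC of -0.36, but the selection was by adjusted p and not by size.

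The series held 6 cultures of primary myoblasts, the precursor cells that fuse into muscle fibers, from the longissimus dorsi muscle of fetal cattle. In the RSV group, 3 cultures were kept for 4 days in differentiation medium with 20 μM RSV, a plant polyphenol, dissolved in DMSO. In the control group, 3 cultures were kept in the same medium and received DMSO, the solvent, alone. According to the study's methods each group came from independent experiments, the muscle was digested with collagenase and trypsin, and the cells that had not attached after a short plating were moved to a new dish, with no sorting step.

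FGF ligands are secreted or released proteins that bind receptor tyrosine kinases together with heparan sulfate, a sulfated sugar chain carried by proteins of the cell surface and the matrix. A bound receptor signals through adaptors to RAS, RAF and the kinases MEK and ERK, as well as through PLC-gamma and PI3K, and the SPRY and DUSP proteins act as feedback brakes on this route. In muscle, FGF2 is best known as a mitogen that keeps cultured myoblasts dividing and holds back their fusion.

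The deposited values were group means, from which the whole reads of single libraries were recovered for 20152 mRNAs (98.5% of those with reads). The recovered reads summed to between 10986694 and 13143921 per library, without 307 mRNAs too abundant to be resolved. The recovered libraries carried no replicate number and are called a, b and c within each group. Values are normalized reads, that is, reads divided by the size factor of the library. They are not corrected for the length of the mRNA, so levels are compared between libraries and not between genes. The RSV libraries a and b were close to each other (R2 = 0.985 over mRNAs), whereas RSV library c stood apart from them. The lowest R2 of the RSV pairs, 0.946, was that of a pair with library c. Of the 20 myoblast and myotube markers looked up, 8 had an identifier and 7 had recovered reads: MYMK, MYH7, TNNT1, TNNT2, TNNI1 and ACTN2 were up-regulated in RSV and MYL1 was down-regulated. The reads of MYH3 were not recovered, and PAX7, MYOD1, MYOG and DES had no identifier, so the cell type label could be checked only against these contractile and fusion genes, none of which was at 0 in any library. Their summed level was 17020 to 17640 normalized reads in RSV and 11270 to 12390 in DMSO. Of 10 fibroblast markers, 7 had an identifier and 3 had recovered reads: PDGFRA and FAP were down-regulated and TCF7L2 was up-regulated, with a summed level of 10510 to 11180 in RSV and 13670 to 13920 in DMSO. PDGFRA was the largest part of this sum, with a mean of 6903 in RSV and 9252 in DMSO, and the reads of THY1, DCN, LUM and COL3A1 were not recovered. Like the members, the markers were named only because they were DE, so their differences between the groups follow from that selection. The single leukocyte marker with an identifier, CD14 of 5, had 27.69 to 46.48 normalized reads in RSV and 8.337 to 10.38 in DMSO, and none of the 6 adipocyte or 6 endothelial markers had an identifier. The part of these markers in the FGF values was not tested, and in bulk RNA fewer cells of a type and less RNA per cell cannot be told apart.

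For the comparison of RSV with DMSO, mRNAs averaging under 10 normalized reads were set aside. Among the 14720 kept, limma voom, a linear model on weighted log2 reads, called 2477 higher (16.8%) and 2533 lower (17.2%) in RSV at an adjusted p under 0.05, or 34.0% in either direction. With library sizes taken from the summed reads in place of the size factors, the split was 3025 higher and 2055 lower. In 53.4% of the mRNAs tested, the 3 RSV values and the 3 DMSO values did not overlap. Of 123 FGF pathway genes in the lists, 27 had an identifier and 25 of these had recovered reads. All 25 were called, 14 higher and 11 lower in RSV, and in all 25 the groups did not overlap, which follows from the way they were named and is no result about the pathway. The median log2FC of the 25 genes was 0.42, against 0.01 over all mRNAs tested and -0.39 over the 1749 named mRNAs that were tested. Of these 1749, 791 were called higher and 958 lower, so the sign of such a median follows which side holds more genes. The median absolute log2FC of the 25 genes was 0.72, against 0.69 over the named mRNAs. Without the 10 members, 22 of 113 genes were tested, and 13 were higher and 9 lower in RSV. The plot of log2FC by role shows all 25 genes.

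**Figure D1:**
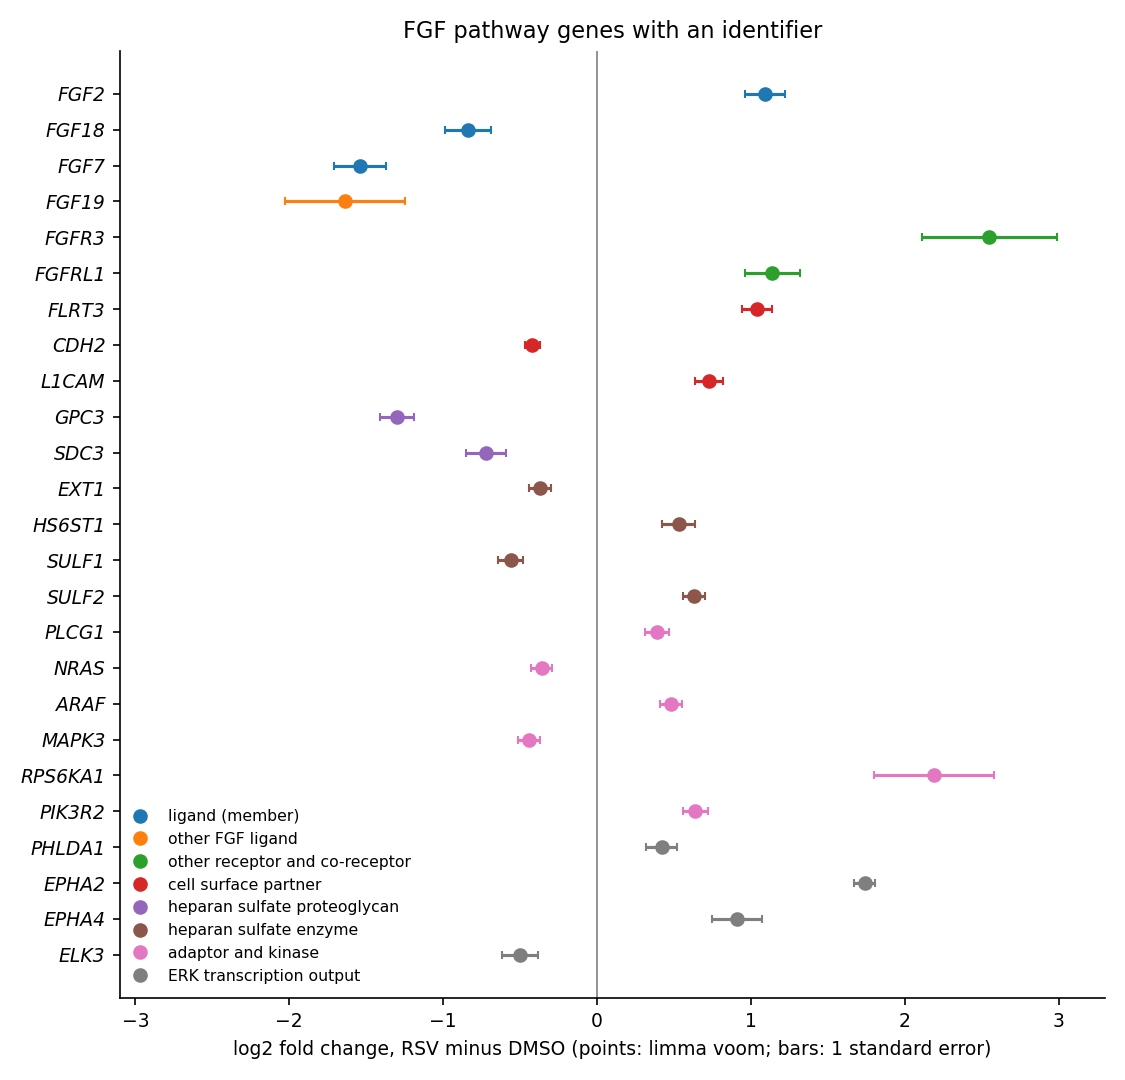
log2 fold change (RSV minus DMSO) of the 25 FGF pathway genes with an identifier and recovered reads, as points with bars of 1 standard error from limma voom, colored by role. FGF2 lies at 1.09 and the other FGF ligands lie at or below -0.84, while FGFR3, at 2.55, and RPS6KA1, at 2.19, lie farthest to the right with wide bars.

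The ligands moved in opposite directions. FGF2 (ENSBTAG00000005691) was up-regulated about 2-fold in RSV, whereas FGF18 (ENSBTAG00000000128) and FGF7 (ENSBTAG00000004013) were down-regulated, and so was FGF19, which was not among the members. FGF2 had 1505, 1538 and 1133 normalized reads in RSV libraries a, b and c and 610.2, 644 and 698.4 in DMSO libraries a, b and c. Every RSV library was above every DMSO library, and RSV library c was the lowest of the RSV group. The means were 1392 ± 225 in RSV and 651 ± 44.5 in DMSO (SD, n = 3), a 2.14-fold difference with a log2FC of 1.09 (SE 0.13).

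FGF18, a ligand of the FGF8 subfamily best known from skeletal growth, had 325.4, 288.9 and 466.7 normalized reads in RSV and 602.9, 655.5 and 640.8 in DMSO. Its RSV values were all below the DMSO values, and RSV library c came nearest to the control level. The means were 360 ± 93.9 in RSV and 633 ± 27.1 in DMSO (SD, n = 3), with a log2FC of -0.84 (SE 0.15). For FGF2 and FGF18 alike, the difference from DMSO was thus smaller in library c than in libraries a and b.

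FGF7, the keratinocyte growth factor, is made by mesenchymal cells and acts mainly on epithelia. It had 340.1, 418.1 and 231.5 normalized reads in RSV and 940.1, 904.6 and 972.5 in DMSO. The groups were far apart, and here RSV library c was the farthest from the control group. DMSO exceeded RSV 2.85-fold, with means of 939 ± 34.0 and 330 ± 93.7 (SD, n = 3) and a log2FC of -1.54 (SE 0.17). The fibroblast markers FAP (log2FC -1.13) and PDGFRA (log2FC -0.42) were lower in the same libraries and TCF7L2 (log2FC 0.77) was higher, and their part in the value of FGF7 was not tested. FGF19 is an endocrine ligand known for the control of bile acid synthesis. It was weakly covered, with 34.93, 52.61 and 13.28 normalized reads in RSV and 86.13, 102.1 and 88 in DMSO. Relative to their mean, its RSV libraries differed more from each other (CV 58.6%, SD over mean) than those of the other ligands, and its log2FC of -1.64 carried an SE of 0.39.

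**Figure D2:**
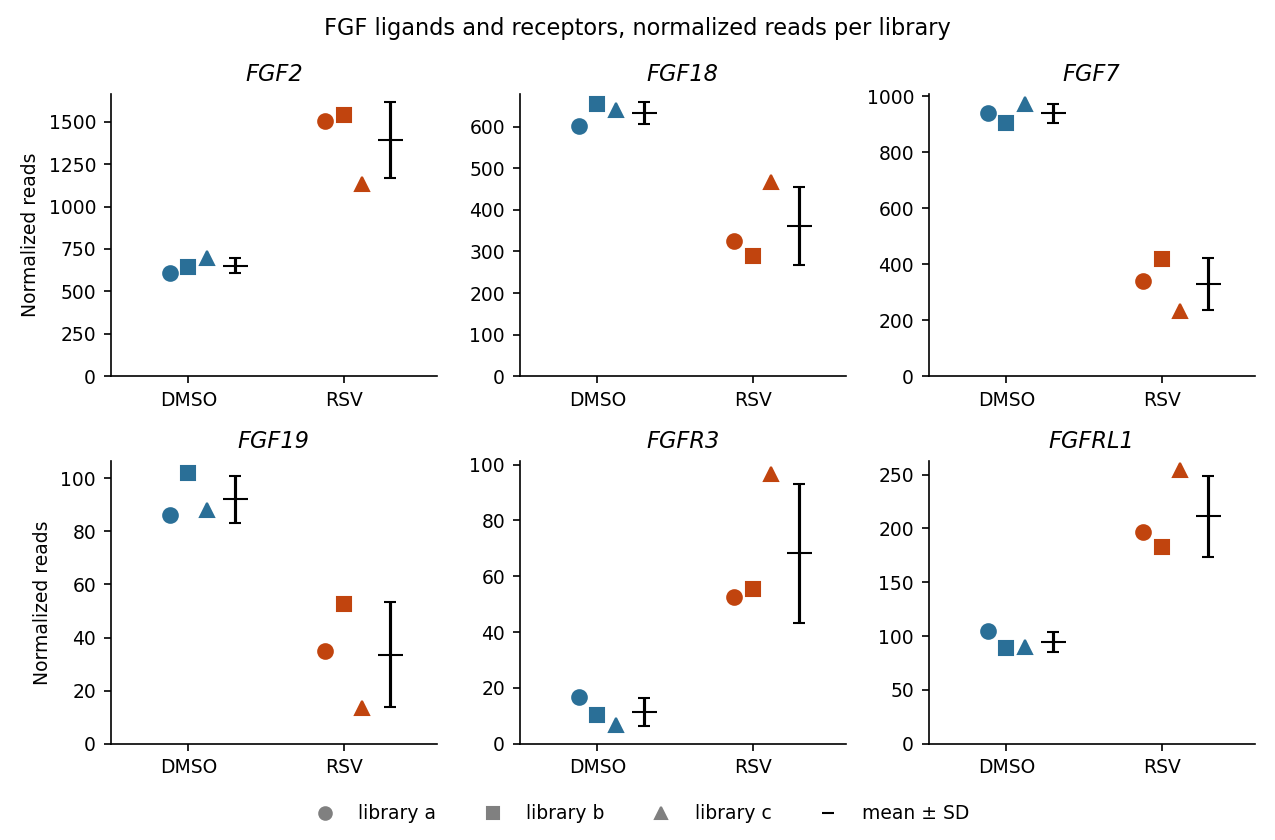
Normalized reads of the FGF ligands and receptors in each recovered library, RSV against DMSO, each panel with its own axis from 0. Circles, squares and triangles mark libraries a, b and c, and the black bars show the mean ± SD of each group. The RSV and DMSO points do not overlap for any gene shown, and the RSV points of FGF2, FGF18 and FGF7 are more scattered than their DMSO points.

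The scatter of the ligands was larger in RSV than in DMSO. The coefficient of variation (CV, SD over mean) of FGF2 was 16.2% in RSV and 6.84% in DMSO, where counting of reads alone would give 2.58% and 4.05%. FGF18 had a CV of 26.1% in RSV and 4.29% in DMSO, with 5.09% and 4.11% from counting. FGF7 had a CV of 28.4% in RSV and 3.62% in DMSO, with 5.3% and 3.37% from counting. Each of these CVs rests on 3 libraries, and the difference in CV between the groups was not tested. The median CV over all 14720 mRNAs tested was 10.1% in RSV and 6.1% in DMSO, and the CV was larger in RSV for 18 of the 25 pathway genes. How often this held over all mRNAs tested was not counted.

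The receptors FGFR1, FGFR2 and FGFR4 had no identifier. Among the other receptors, FGFR3 and FGFRL1 could be read, and both were up-regulated in RSV. FGFR3, a receptor tyrosine kinase known for restraining the growth of cartilage, had 52.39, 55.38 and 96.76 normalized reads in RSV and 16.6, 10.42 and 6.769 in DMSO. These values rested on 219 reads in the RSV group and 32 reads in the DMSO group, so the 6.05-fold difference (log2FC 2.55, SE 0.44) was among the least precise of the pathway. FGFRL1, which binds FGFs but lacks the kinase domain, had 196.7, 182.7 and 254.2 normalized reads in RSV and 104.8, 88.58 and 90.26 in DMSO. RSV library c was the highest for both receptors, and the log2FC of FGFRL1 was 1.14 (SE 0.18).

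Surface proteins that bind FGF receptors were divided, with 2 higher and 1 lower in RSV. FLRT3, a transmembrane protein that associates with FGF receptors and promotes their signaling, had 1068, 1124 and 1323 normalized reads in RSV and 623.6, 558.6 and 523.5 in DMSO, with a log2FC of 1.04 (SE 0.10). L1CAM, an adhesion molecule best known from neurons, had 618.6, 611 and 556.9 in RSV and 390.2, 327.2 and 364.4 in DMSO, with a log2FC of 0.73 (SE 0.09). CDH2, the N-cadherin through which myoblasts adhere to each other, had 1928, 2016 and 1876 in RSV and 2591, 2553 and 2656 in DMSO, with a log2FC of -0.42 (SE 0.05). FLRT3 and L1CAM were thus higher and CDH2 lower in every RSV library, and CDH2 had the tightest replicates of the group. These were 3 of the 10 partners looked up.

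Both heparan sulfate proteoglycans with recovered reads were down-regulated in RSV. GPC3, a glypican held in the membrane by a lipid anchor, had 160.9, 174.4 and 138.5 normalized reads in RSV and 399.5, 377.3 and 390.4 in DMSO, with a log2FC of -1.30 (SE 0.11). SDC3, a syndecan found on muscle satellite cells, had 1371, 1542 and 1027 in RSV and 2081, 2272 and 2059 in DMSO, with a log2FC of -0.72 (SE 0.13). Library c was the lowest for both. GPC1 and HSPG2 had an identifier, but their reads were not recovered, and the other proteoglycans of the list of 13 had none.

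The enzymes that build and trim heparan sulfate were divided, with 2 higher and 2 lower among the 4 of 17 that could be read. EXT1, a subunit of the polymerase that makes the chain, had 1384, 1384 and 1200 normalized reads in RSV and 1724, 1734 and 1652 in DMSO, with a log2FC of -0.37 (SE 0.07). HS6ST1, which adds sulfate to the chain, had 2573, 3378 and 3309 in RSV and 2133, 2018 and 2238 in DMSO, with a log2FC of 0.53 (SE 0.11). The extracellular sulfatases SULF1 and SULF2, which remove sulfate of the kind that HS6ST1 adds, went opposite ways. SULF1 had 1955, 2004 and 1633 in RSV and 2801, 2697 and 2698 in DMSO, with a log2FC of -0.56 (SE 0.08). SULF2 had 5679, 5813 and 5172 in RSV and 3440, 3862 and 3484 in DMSO, with a log2FC of 0.63 (SE 0.07). Within each sulfatase, the lowest value of the higher group was well above the highest value of the lower group.

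Of 28 adaptors and kinases, 6 could be read, and 4 of these were higher and 2 lower in RSV. RPS6KA1, the ERK-activated kinase RSK1, differed most, with 151.7, 168 and 307.4 normalized reads in RSV and 39.43, 52.11 and 38.36 in DMSO. Library c was nearly as high as the other RSV libraries combined, and the log2FC of 2.19 had an SE of 0.39. PLCG1, which docks on activated FGF receptors, had 3016, 2743 and 3343 in RSV and 2247, 2287 and 2414 in DMSO, with a log2FC of 0.39 (SE 0.08). ARAF, a RAF kinase, had 2422, 2328 and 2514 in RSV and 1591, 1811 and 1822 in DMSO, with a log2FC of 0.48 (SE 0.07). PIK3R2, a regulatory subunit of PI3K, had 2919, 3130 and 2983 in RSV and 1734, 2094 and 1972 in DMSO, with a log2FC of 0.64 (SE 0.08). All 3 differences were below 2-fold, and the RSV libraries of ARAF and PIK3R2 lay closer together (CV 3.85% and 3.58%) than those of PLCG1 (CV 9.9%).

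NRAS, a RAS protein, and MAPK3, which encodes ERK1, were the 2 lower genes of this group. NRAS had 2166, 2397 and 2061 normalized reads in RSV and 2872, 2865 and 2753 in DMSO, with a log2FC of -0.36 (SE 0.07). MAPK3 had 1725, 1866 and 1690 in RSV and 2290, 2578 and 2313 in DMSO, with a log2FC of -0.44 (SE 0.07). Along the RAS, RAF and ERK route the genes that could be read were therefore lower (NRAS), higher (ARAF), lower (MAPK3) and higher (RPS6KA1) in turn. These are mRNA levels, and kinase activity was not measured.

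None of the feedback genes SPRY2, SPRY4 and DUSP6, nor any of the 9 other feedback genes looked up, had an identifier. The list of genes and transcription factors downstream of ERK gave 4 of 14, with 3 higher and 1 lower. EPHA2, an ephrin receptor whose transcription rises with ERK activity, had 3725, 3536 and 3770 normalized reads in RSV and 999.3, 1168 and 1130 in DMSO. This 3.35-fold difference had a log2FC of 1.74 with an SE of only 0.07, and library c did not stand apart. EPHA4, a related ephrin receptor, had 864, 786.3 and 1177 in RSV and 493.9, 450.2 and 538.2 in DMSO, with a log2FC of 0.91 (SE 0.16). PHLDA1, a gene induced soon after growth factor stimulation, had 784.1, 838.9 and 675.4 in RSV and 560.4, 611.7 and 543.8 in DMSO, with a log2FC of 0.42 (SE 0.10). ELK3, an ETS transcription factor that ERK phosphorylates, had 893.4, 1021 and 730.5 in RSV and 1169, 1332 and 1214 in DMSO, with a log2FC of -0.50 (SE 0.12). EPHA4 was highest and PHLDA1 and ELK3 were lowest in RSV library c.

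**Figure D3:**
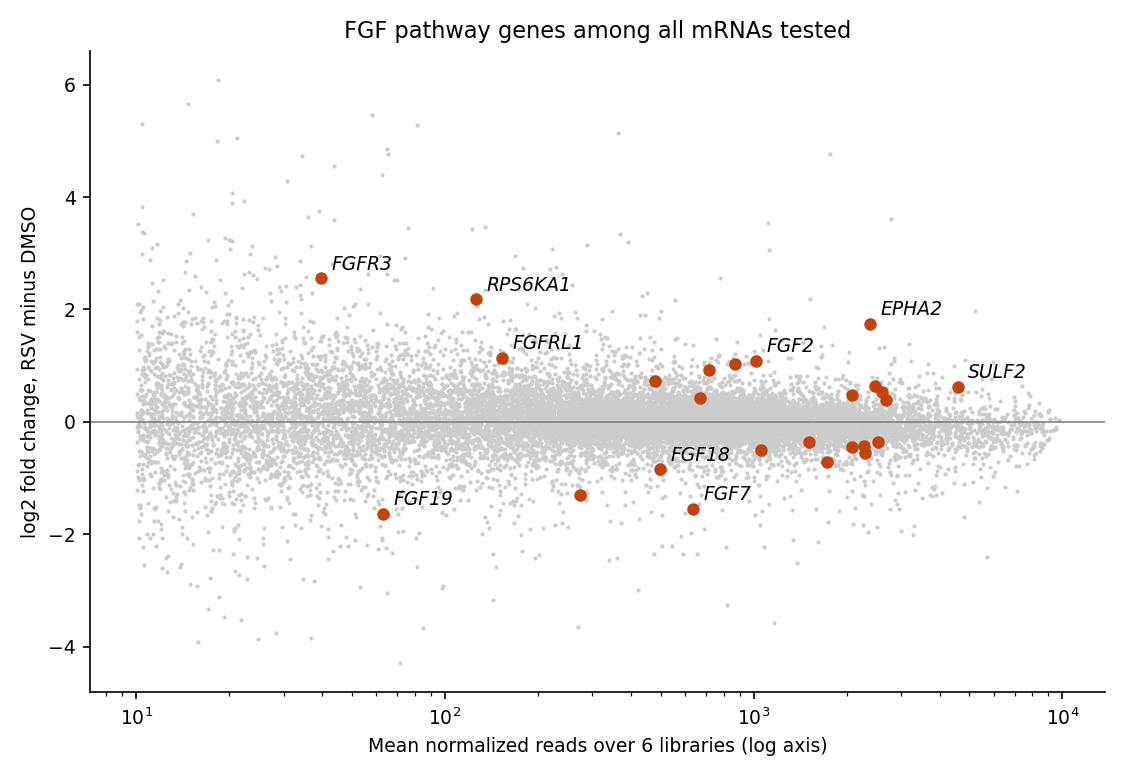
log2 fold change (RSV minus DMSO) against mean normalized reads (log axis) for the 14720 mRNAs tested (gray) and the 25 FGF pathway genes (orange). FGF19 and FGFR3 lie at the low end of the level axis, SULF2 at the high end, and FGF2, FGF18 and FGF7 in between.

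The position of RSV library c differed between the ligands. As a mean of log2 normalized reads, with no pseudocount, FGF2 differed from DMSO by 1.23 in libraries a and b and by 0.80 in library c, and FGF18 by -1.05 and -0.44. FGF7 showed the opposite order, with -1.32 in libraries a and b and -2.02 in library c, as did FGF19 with -1.10 and -2.79 and FGFR3 with 2.35 and 3.20. Of the 25 pathway genes, 19 (76%) differed more from DMSO in library c, and the 6 that differed less were FGF2, FGF18, L1CAM, SULF2, PIK3R2 and PHLDA1. Among all 5010 mRNAs called, 77.2% differed more in library c, counted, like the 76%, on the log2(normalized reads + 1) scale. Without library c, all 25 genes were called in the same direction, with a log2FC of 1.23 for FGF2, -1.04 for FGF18 and -1.31 for FGF7. The part of library c in these values beyond its omission was not tested.

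**Figure D4:**
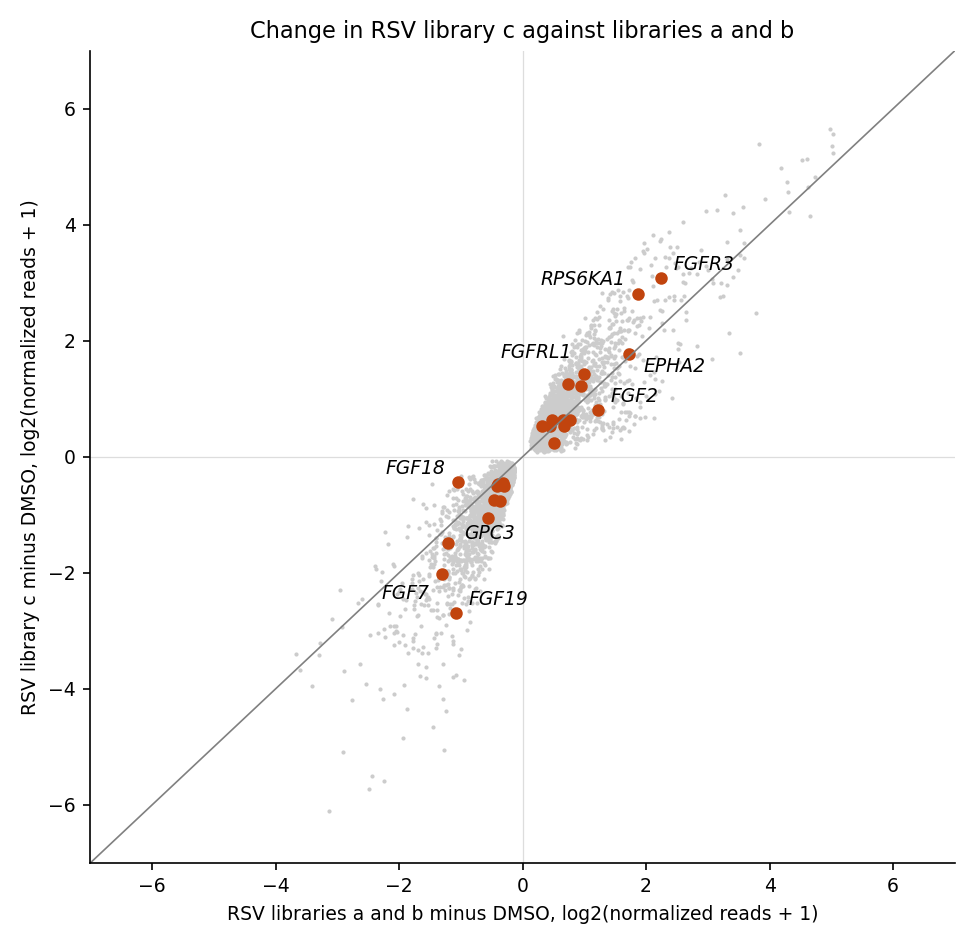
Difference from the DMSO mean in RSV library c (vertical axis) against that in RSV libraries a and b (horizontal axis), both on the log2(normalized reads + 1) scale, for the 5010 mRNAs called (gray) and the 25 FGF pathway genes (orange). The diagonal marks equal differences, and FGF2 and FGF18 lie on the side of it nearer to 0 while FGF7, FGF19, FGFR3 and RPS6KA1 lie on the other.

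The ligands also differed in the named mRNAs whose pattern over the 6 libraries was most like theirs, measured by Pearson's r of log2(normalized reads + 1) among the 1749 named mRNAs. These r values describe 6 libraries in groups of 3 that were chosen for their difference, and carry no test. FGF2 was most like RFWD3 (r = 0.999), WDR90 (r = 0.998) and GDF15 (r = 0.998). GDF15, a stress-induced cytokine, had 751.9, 859.2 and 504.7 normalized reads in RSV and 169.1, 187.6 and 195.2 in DMSO, with library c the lowest of the RSV group as for FGF2. FGF18 was most like BNIP3 (r = 0.998), FASN (r = 0.997) and PCSK5 (r = 0.991). BNIP3, a mitochondrial protein of mitophagy, had 571.7, 517.8 and 753.2 in RSV and 884.1, 995.2 and 975.9 in DMSO. FGF7 was most like ELN, IARS and CYP51A1 (r = 0.999 each). ELN, the gene of elastin, had 1779, 2132 and 1318 in RSV and 4066, 3982 and 4380 in DMSO, and CYP51A1, an enzyme of cholesterol synthesis, had 1361, 1693 and 812 in RSV and 4621, 4730 and 4841 in DMSO. Between the members, r was -0.965 for FGF2 and FGF18, -0.839 for FGF2 and FGF7, and 0.715 for FGF18 and FGF7.

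In the RefSeq annotation of ARS-UCD2.0, FGF2 overlaps NUDT6, FGF7 overlaps FAM227B and FGF18 overlaps a pseudogene. Whether the counting used the strand is not given in the sources used here, and overlap of exons in the build used was not examined. The part of the overlapping partners in these reads was not tested.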

How the data were processed

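RNA of 6 cultures (3 RSV, 3 DMSO, grouped by the treatment in the labels) was sequenced. The authors counted mRNA reads, divided them by DESeq size factors and deposited the mean normalized read count per group, with most decimal points lost; the build is UMD_3.1.1/bosTau8 and Bowtie 0.12.9 is named for miRNA reads, while the mRNA aligner and counter are not given in the sources used here. The deposited table also holds the authors' log2 fold changes, p-values, adjusted p-values and calls, which were not used. Single-library FPKM values and miRNAs were not used here.

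Each group mean was written as a sum of 3 whole reads over 3 size factors (15 digits used, tolerance 0.6 units of the last digit), which restored the decimal point and gave reads of single libraries for 20152 of 20459 mRNAs with reads. Means too high for this search went through a second pass, which recovered 287 RSV and 218 DMSO means. It took only solutions with each library within 1.5-fold of the group mean, so closeness of the libraries was a condition there. A mean whose reads are all multiples of 10 would be read 10 times too low. This needs all 3 reads of a group to be multiples of 10, and was not checked against another source for FGFR3 and other low values. Differences were fitted with limma voom (limma 3.58.1, R 4.3.3) on the 14720 mRNAs that averaged 10 or more normalized reads, size factors setting library sizes, with Benjamini-Hochberg adjustment at 0.05. Decoding and fit were run on simulated data, the decoding without the second pass and the fit with the same scatter in both groups. These runs do not cover the second pass or the larger scatter in RSV. Python 3.11.15, numpy 2.4.6, pandas 2.3.3, numba 0.67.0 and matplotlib 3.10.9 were used.

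Names came from the study's sheets (1863 mRNAs), and the RefSeq table of ARS-UCD2.0 matched 0 identifiers, so no coordinates or sequences are given. The rule for named genes took all members, listed pathway genes and listed markers with an identifier, and the 3 named mRNAs most like each ligand. Other genes in the closing section, picked by symbols like those of MAPK and RAS route genes, were chosen after their values were seen. Members and lists were chosen with earlier results of these data known. Alternatives were limma trend with a pseudocount of 1 or 0.1, library sizes from summed reads, no minimum mean, the ratio of group means, and each library left out in turn.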

Additional observations from a re-analysis of the deposited data

How the results depend on the processing

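The count of mRNAs called was 5010, and leaving out 1 library gave between 2490 and 6217. It was 3504 without RSV library a, 5488 without RSV library b and 6217 without RSV library c, against 2647, 2737 and 2490 without DMSO library a, b and c, and the cause of these shifts was not tested. Of 250 values of the 25 FGF pathway genes under the 10 alternatives with a fit, 246 kept their direction and their side of the threshold and 0 reversed. These genes were named because they were DE in this contrast, so that count follows largely from the selection. The share kept by the other named mRNAs was not counted. The log2 ratio of the group means, which has no test, was within 1 SE of the fitted value for all 25. The 4 others kept their direction and missed the threshold with 1 DMSO library left out: FGF19 (log2FC -1.56 without library b), PHLDA1 (0.40 without library a and 0.38 without library c) and ELK3 (-0.45 without library b). With 1 library left out, log2FC ranged from 1.01 to 1.23 for FGF2, from -1.04 to -0.70 for FGF18, from -1.74 to -1.31 for FGF7, from -2.06 to -1.09 for FGF19, from 2.26 to 2.87 for FGFR3 and from 1.00 to 1.24 for FGFRL1. Library sizes from summed reads moved the median log2FC of all mRNAs from 0.006 to 0.058 and the share of higher calls from 49.4% to 59.5%. No paired analysis was possible because the deposited columns and the libraries recovered from them carry no replicate number, and libraries were not tied to numbered samples by their values. Depth limited FGFR3 most, since its DMSO level rested on 32 reads.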

Other observations

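Outside the lists, 14 mRNAs with symbols like those of MAPK and RAS route genes (kinases, phosphatases, transcription factors, a scaffold and a RAS inhibitor) could be read. Whether each, such as ETV2 and ETV6, belongs to these routes was not examined. They were picked by symbol after values had been seen and were named because they were DE, so their counts describe them only: 7 were higher and 7 lower in RSV. The 3 MAPK kinases of other routes were divided. MAP2K6, which activates p38, had 238.1, 235.3 and 130.9 normalized reads in RSV and 626.8, 664.9 and 649.9 in DMSO, with a log2FC of -1.73 (SE 0.19) and the lowest value in RSV library c. MAP2K3, which also activates p38, had 1278, 1229 and 1390 in RSV and 815.6, 974.4 and 916.1 in DMSO, with a log2FC of 0.53 (SE 0.08). MAP2K5, the activator of ERK5, had a log2FC of -0.44 (SE 0.07). The p38 activators thus went opposite ways in every library.

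The phosphatases with a DUSP symbol were also divided, with DUSP10 lower (log2FC -0.59, SE 0.08) and DUSP3 (0.42, SE 0.07) and DUSP13 (0.79, SE 0.17) higher. The transcription factors ETV2 (-1.22, SE 0.14), ETV6 (-0.66, SE 0.11) and FOSL2 (-0.55, SE 0.07) were lower. RASAL1, which switches RAS off, rested on few reads, with 79.97, 84.91 and 92.97 normalized reads in RSV and 41.51, 29.18 and 31.59 in DMSO (log2FC 1.33, SE 0.20).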
